A study of Mus musculus with 2 samples.

Results

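Basophils and mast cells were examined among the CD45+ cells of MC38 tumors. The cells that met the marker rule given below numbered 95 of 8622 barcodes, 30 of 5043 in the Control library and 65 of 3579 in the IR library. Some of them carried RNA of other cell types instead, as described below. MC38 is a mouse colon carcinoma line that was grown under the skin of WT mice, aged 8 to 10 weeks in the methods of the study. The Control library came from tumors that were not irradiated, and the IR library from tumors collected 4 days after a single dose of 20 Gy. Each library was made from the live CD45+ cells of several pooled tumors, so a group was 1 library, animals could not be told apart, and no test was possible. The sample records also give a narrower label, CD45+CD11b+Ly6Chi, which differs from the CD45+ sort.

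The cells were chosen by their own RNA. UMIs (unique molecular identifiers) count the RNA molecules caught from a cell. A barcode was kept with at least 500 UMIs and at most 25% mitochondrial UMIs. It was a member when Mcpt8, Ms4a2, Cpa3 and Cd200r3 together had at least 3 UMIs, C1qa, C1qb and C1qc together at most 5, and Cd3d and Cd3g none. These genes therefore describe the members and support nothing. Members carried a median of 10 UMIs of the 4 genes and at most 183. Exactly 3 UMIs were found in 3 Control and 5 IR members. Just outside the limit, 9 Control and 6 IR barcodes had 2 UMIs, and a further 3 and 9 had enough UMIs but passed the C1q or Cd3 limit. No barcode was shared between the Control and IR members. Members held a median of 2824 UMIs in Control and 3638 in IR, while all other kept barcodes held 6799 and 7977.

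Basophils and mast cells are the granulated cells that carry the high-affinity receptor for IgE, built from Fcer1a, Ms4a2 and Fcer1g. Both store histamine, made by the enzyme Hdc, and proteases, and both release cytokines and lipid mediators when the receptor is crosslinked or when alarmins reach them. Basophils mature in the bone marrow and circulate, and in the mouse their granules hold the proteases Mcpt8 and Prss34. Mast cells mature in tissue under Kit signalling, and their granules hold chymases such as Cma1 and Mcpt4, the tryptases Tpsb2 and Tpsab1, and the carboxypeptidase Cpa3.

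Proteases that separate these cells lie in shared stretches of the genome. Chosen genes alone were looked up, so other genes may lie between them. On chromosome 14 of GRCm38, 7 genes of the chymase and granzyme family stood in the order Cma1, Mcpt1, Mcpt2, Mcpt4, Mcpt8, Gzmc and Gzmb within 320.8 kb (55941451 to 56262260). The basophil gene Mcpt8 (56082166 to 56085273, minus strand) thus lies between the mast cell gene Mcpt4 (56059629 to 56062313) and the cytotoxic cell gene Gzmc (56231441 to 56234656). On chromosome 17, Prss34 (25298394 to 25300165) lies near Tpsab1 (25343245 to 25345562) and Tpsb2 (25366305 to 25369098). Ms4a2 lies on chromosome 19 (11615523 to 11623719), Cpa3 on chromosome 3 (20215620 to 20242181) and Cd200r3 on chromosome 16 (44943678 to 44981380). Genes of such families can share reads, and how the counting split them was not tested.

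The promoters of 6 of these genes are shown because the genes define the cells: Mcpt8 and Prss34 the basophils, Cma1 and Mcpt4 the mast cells, and Ms4a2 and Cpa3 both. Each runs 5' to 3' from 250 bases before to 50 bases after the RefSeq start on GRCm38.p6. The positions are chr14:56085148-56085447 (minus strand), chr17:25298144-25298443 (plus), chr19:11623670-11623969 (minus), chr3:20242132-20242431 (minus), chr14:55944626-55944925 (minus) and chr14:56062261-56062560 (minus). Capitals mark GATAA or its reverse complement TTATC, letters read by GATA factors, of which Gata2 is a factor of both cell types. The match occurred 3 times in Ms4a2, 1 time each in Prss34, Cpa3, Cma1 and Mcpt4, and 0 times in Mcpt8. Cd200r3, the other rule gene, had 2 matches, and its promoter is not printed because the comparisons turn less on it. Of 32851 promoters of the same length, 25.4% held at least 1 match, and a match is a description of letters, not of binding.
Mcpt8: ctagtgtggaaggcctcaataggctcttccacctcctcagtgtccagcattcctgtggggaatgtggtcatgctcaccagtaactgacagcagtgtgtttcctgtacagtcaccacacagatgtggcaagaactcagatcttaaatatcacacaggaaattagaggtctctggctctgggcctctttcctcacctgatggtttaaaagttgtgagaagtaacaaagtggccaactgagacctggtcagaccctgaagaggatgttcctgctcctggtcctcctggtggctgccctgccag
Prss34: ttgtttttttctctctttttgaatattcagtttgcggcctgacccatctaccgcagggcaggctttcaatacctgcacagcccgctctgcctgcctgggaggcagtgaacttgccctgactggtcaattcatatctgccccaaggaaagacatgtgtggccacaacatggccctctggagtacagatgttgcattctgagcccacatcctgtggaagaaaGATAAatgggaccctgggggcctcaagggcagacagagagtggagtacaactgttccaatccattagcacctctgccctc
Ms4a2: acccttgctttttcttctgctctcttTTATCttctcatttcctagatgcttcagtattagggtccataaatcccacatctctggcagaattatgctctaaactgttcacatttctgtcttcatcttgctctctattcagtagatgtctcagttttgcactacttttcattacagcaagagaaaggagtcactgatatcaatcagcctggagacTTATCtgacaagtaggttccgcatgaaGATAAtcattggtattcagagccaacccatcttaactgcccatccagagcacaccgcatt
Cpa3: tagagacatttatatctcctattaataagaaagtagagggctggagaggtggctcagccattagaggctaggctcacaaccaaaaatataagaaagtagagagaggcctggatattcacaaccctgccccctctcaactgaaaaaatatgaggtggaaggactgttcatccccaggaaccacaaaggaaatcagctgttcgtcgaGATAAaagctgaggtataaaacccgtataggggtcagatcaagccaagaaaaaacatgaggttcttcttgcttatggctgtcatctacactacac
Cma1: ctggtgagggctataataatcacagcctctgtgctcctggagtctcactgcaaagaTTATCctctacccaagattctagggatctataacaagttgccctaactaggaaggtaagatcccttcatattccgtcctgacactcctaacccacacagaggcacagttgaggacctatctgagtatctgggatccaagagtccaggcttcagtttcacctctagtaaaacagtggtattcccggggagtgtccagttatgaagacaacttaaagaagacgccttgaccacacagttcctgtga
Mcpt4: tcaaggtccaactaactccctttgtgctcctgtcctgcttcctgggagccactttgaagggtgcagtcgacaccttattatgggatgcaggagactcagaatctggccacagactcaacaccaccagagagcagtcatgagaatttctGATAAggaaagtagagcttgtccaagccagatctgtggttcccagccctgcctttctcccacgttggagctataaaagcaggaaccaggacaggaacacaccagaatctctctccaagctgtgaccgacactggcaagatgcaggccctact

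The members separated by their proteases. A member was placed with the basophils when Mcpt8 and Prss34 together had more UMIs than Cma1, Mcpt4, Tpsb2 and Tpsab1 together, and with the mast cells in the reverse case. This gave 18 Control and 40 IR cells in the Mcpt8 and Prss34 class, 9 and 16 mast cell-like cells, and 3 and 9 undetermined cells. The mast cell-like cells stood far from the cut, with 43 to 1761 UMIs of the 4 mast cell proteases and 0 to 10 UMIs of Mcpt8 and Prss34. The other side was less clean, with 6 of its 58 cells within 1 UMI of the cut.

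The Mcpt8 and Prss34 class held 6 cells that went against the name. These 2 Control and 4 IR cells were large and carried the granzyme gene Gzmc, and they held 49.4% of the Control and 54.8% of the IR UMIs of the class. The Control pair had 270 and 508 UMIs of Gzmc, with 15 UMIs of Mcpt8 and 0 of Hdc, Fcer1a, Cyp11a1 and Gata2. A further IR member, undetermined, had 110 UMIs of Gzmc but also 24 of Hdc, 9 of Gata2, 3 of Cyp11a1, 108 of Ccl3 and 170 of Ccl4. With it, the 5 IR cells had 110 to 1892 UMIs of Gzmc, 412 of the cytotoxic granule gene Nkg7, 22 of Mcpt8 and 25 of Hdc. Low Mcpt8 counts were also found in NK cell barcodes outside the members, with 6 UMIs (2.21 CPM, UMIs per 1000000 UMIs of the summed cells) in Control and 24 (5.07 CPM) in IR. The doublet caller Scrublet, with every score at or above that of the top 6% marked, took 355 of 5043 Control barcodes (7.04%) and 223 of 3579 IR barcodes (6.23%), and with them 0 of 30 Control and 1 of 65 IR members.

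Basophil-like cells were therefore taken as the members that were not mast cell-like, had at least 5 UMIs of Hdc, Cyp11a1, Gata2 and Fcer1a together, and at most 5 of Gzmc, Nkg7 and Ncr1 together. This definition was chosen after the values were seen. It gave 19 Control and 42 IR cells, 61 in all, of which 3 and 6 had been undetermined. Ward clustering of the members into 2 groups used principal components computed without the rule genes and the basophil and mast cell marker lists. Hdc, Cyp11a1, Gata2, Fcer1a, Gzmc, Nkg7 and Ncr1, which define the basophil-like cells, stayed in, so the clustering is not independent of the definition. It placed the same 19 and 42 cells together. The other group held 11 Control and 23 IR cells, of which 9 and 16 were mast cell-like, and it included the Gzmc cells. It also held an undetermined IR member of 25251 UMIs, with 398 of Cd74 and 683 of Lyz2, and another of 31080 UMIs, with 1046 of Cd74. Each had 3 UMIs of Cd200r3 and 0 of Hdc, Cyp11a1, Gata2 and Fcer1a. Both went against the name of the part and are counted among all members. Hdc, Cyp11a1, Gata2 and Fcer1a, like the rule genes, are therefore descriptions where the 2 cell types are compared. In the following, basophil-like means these 61 cells, and values of the Mcpt8 and Prss34 class are named as such. The plot of UMIs per member shows both groups and the Gzmc cells.

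**Figure D1:**
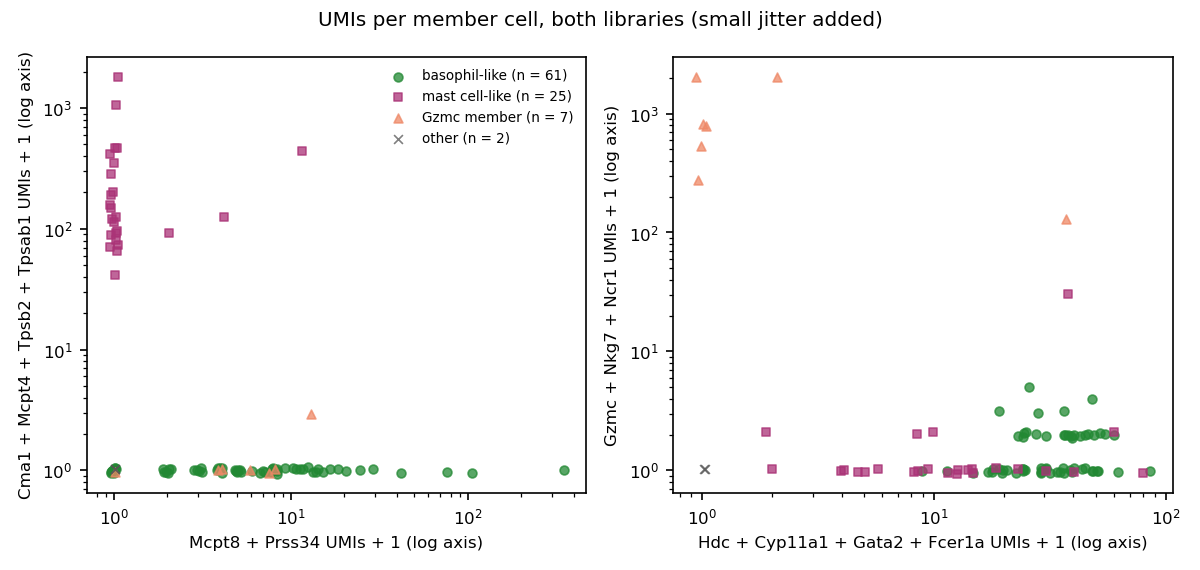
UMIs per member cell of both libraries on log axes, each point 1 cell of the 95 members, with mast cell proteases, Mcpt8 and Prss34, the Hdc group of genes and Gzmc as axes. Mast cell-like cells (25) stand apart at 43 or more UMIs of the mast cell proteases, and the Gzmc cells lie away from the 61 basophil-like cells. The axes are the UMI sums that defined the groups, so the distance of the Gzmc cells from the basophil-like cells is set by construction. The split fixed the side on which mast cell-like cells lie, but not the 43 UMIs.

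Basophil-like cells were small and even in size. They held 2198 to 3983 UMIs in Control (median 2858) and 1014 to 7135 in IR (median 3526), with median mitochondrial shares of 1.82% and 1.68%. Mast cell-like cells held 872 to 11111 UMIs in Control (median 2104) and 516 to 17763 in IR (median 2655), with mitochondrial shares of 5.80% and 4.04%. Summed, basophil-like cells gave 54152 UMIs in Control and 156697 in IR, and mast cell-like cells 32238 and 71221. All levels below are CPM of such sums, with exact Poisson 95% intervals that cover counting error only, and neither animals nor libraries.

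The receptor for IgE was common to both cell types. Ms4a2, its beta chain, was at 308 CPM in basophil-like and 290 CPM in mast cell-like cells (1.06-fold, 0.680 to 1.70), and Fcer1g, its gamma chain, at 3102 and 3141 CPM (0.987-fold, 0.863 to 1.13). Fcer1a, the IgE-binding alpha chain, was 1.97-fold higher in mast cell-like cells (1.54 to 2.51). Hdc was found in both, at 5649 CPM in basophil-like cells, 2.74-fold above mast cell-like cells (2.37 to 3.19). Cpa3, the mast cell carboxypeptidase, was found in both at unequal levels, 9.85-fold higher in mast cell-like cells (8.29 to 11.8). Ms4a2 and Cpa3 chose the members, and Fcer1a and Hdc helped define the basophil-like cells, so these values are descriptions.

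Mast cell proteases separated the cell types. Mcpt2 had 3136 UMIs in mast cell-like cells, Cma1 2987, Tpsb2 2399 and Mcpt4 1547, against 0 UMIs of each in 210849 UMIs of basophil-like cells. With 0 taken as at most 3 counts over the group, they were at least 2130-fold (Mcpt2), 2029-fold (Cma1), 1630-fold (Tpsb2) and 1051-fold (Mcpt4) higher. Cma1, Mcpt4 and Tpsb2 are descriptions, since the split used them, and Mcpt2 was not used. Among genes the split did not use, Tph1, the enzyme of serotonin synthesis, had 232 and 0 UMIs (at least 158-fold), Mcpt1 403 and 0 (at least 274-fold), and the mast cell receptor genes Mrgprb1 and Mrgprb2 78 and 33 against 0. Kit, the receptor that tissue mast cells depend on, had 67 UMIs in mast cell-like and 3 in basophil-like cells (45.5-fold, 14.9 to 226). Il1rl1, the receptor of interleukin-33, was 6.73-fold higher in mast cell-like cells (4.81 to 9.58).

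Chemokines divided between the cell types. Ccl7 had 1778 UMIs in mast cell-like cells and 2 in basophil-like cells, and Ccl2 636 and 6 (216-fold, 98.7 to 591), both ligands that attract monocytes. Basophil-like cells instead carried Ccl3 (47162 against 1160 CPM), Ccl4 (73342 against 4214 CPM), Ccl6 (11691 against 251 CPM), Ccl9 (3182 against 67.7 CPM) and the neutrophil attractant Cxcl2 (11084 against 106 CPM). The folds ran from 17.4 for Ccl4 (15.8 to 19.2) to 104 for Cxcl2 (58.2 to 209). Ccl4 and Ccl3 had the highest levels of these. In mast cell-like cells 1 IR cell held 107 of 120 Ccl3 UMIs and 253 of 436 Ccl4 UMIs. Without it and another IR cell that carried RNA of other lineages, Ccl3 was 295-fold (169 to 571) and Ccl4 31.1-fold (26.8 to 36.3) higher in basophil-like cells, and Ccl6, Ccl9 and Cxcl2 had 1 UMI each in mast cell-like cells. Of 8 chemokine genes with at least 20 UMIs, 5 were past 2-fold in basophil-like and 3 in mast cell-like cells. Over all 1767 genes, 20.4% were past 2-fold higher in basophil-like cells and 16.5% in mast cell-like cells.

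Other genes of basophil-like cells were as follows. Ptgs2, the inducible cyclooxygenase of prostaglandin synthesis, had 553 UMIs against 0 in mast cell-like cells (at least 90.4-fold higher), Perp 146 against 0 and the antimicrobial gene Pglyrp1 146 against 0. The transcription factor Cebpa had 49 UMIs against 1 (24.0-fold, 4.12 to 969) and Gata2 was 2.87-fold higher (1.96 to 4.31). Cyp11a1, the side-chain cleavage enzyme of steroid synthesis, was 7.80-fold higher (5.46 to 11.5). Gata2 and Cyp11a1 helped define the basophil-like cells, with no such minimum for mast cell-like cells, so both folds are descriptions. The cytokines Il4, Il1b and Il6 were 7.87-fold (5.56 to 11.5), 7.58-fold (4.82 to 12.6) and 4.59-fold (3.47 to 6.18) higher. Without the 2 IR mast cell-like cells that carried RNA of other lineages, described further on, Il4 was 32.3-fold (14.8 to 88.5) and Il6 4.17-fold (3.06 to 5.81) higher, and Il1b had 1 UMI left in mast cell-like cells against 309. Immediate-early genes, which switch on within minutes of a stimulus or of tissue handling, were past 2-fold in basophil-like cells for 15 of 23 measured and in mast cell-like cells for 0, with Egr1 26.5-fold higher (18.4 to 39.7). Glycolysis and hypoxia genes went the other way, with 1 of 14 past 2-fold in basophil-like and 7 in mast cell-like cells. By sum this lay mostly in IR, at 4499 CPM in basophil-like and 10306 in mast cell-like cells, with the 2 mixed IR cells included. In Control the sums were 4044 (3526 to 4617) and 5304 (4539 to 6162) CPM, with overlapping intervals. The shares over all 1767 genes were 20.4% and 16.5%. Mcpt8 and Prss34 helped set the split, and Mcpt8 stood at 2324 CPM in basophil-like cells against 10 UMIs in mast cell-like cells, all 10 in 1 Control cell. Prss34 had 0 UMIs in Control and 413 in IR basophil-like cells, against 4 in Control and 0 in IR mast cell-like cells.

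**Figure D2:**
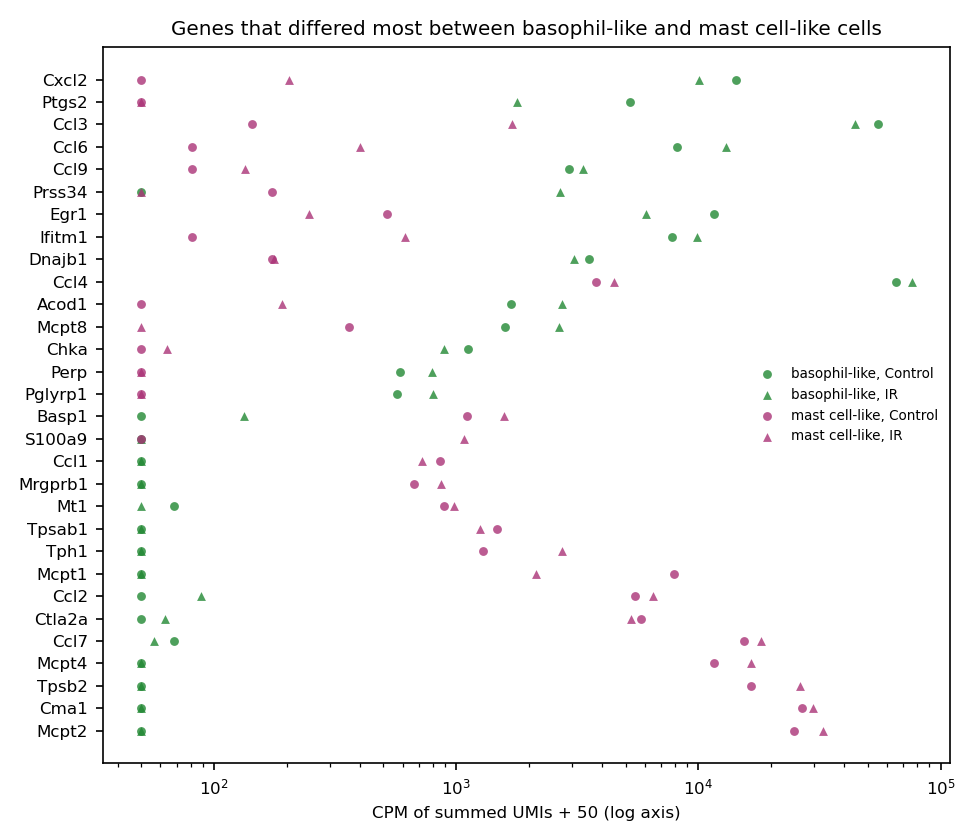
CPM of summed UMIs plus 50 on a log axis in basophil-like and mast cell-like cells of each library for the 30 genes that differed most. Mast cell proteases, Ccl7 and Ccl2 lie on the mast cell side and Cxcl2, Ptgs2, Ccl3, Ccl6 and Ccl9 on the basophil side in both libraries. Prss34 was found in IR basophil-like cells, with 0 UMIs in Control ones and 4 UMIs in Control mast cell-like cells.

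Both cell types made up a larger share of the IR library. Basophil-like cells were 19 of 5043 Control barcodes (0.377%, exact Clopper-Pearson 95% interval 0.227 to 0.588) and 42 of 3579 IR barcodes (1.17%, 0.847 to 1.58), a ratio of 3.11 (1.81 to 5.35). Mast cell-like cells were 9 (0.178%, 0.0816 to 0.339) and 16 (0.447%, 0.256 to 0.725), a ratio of 2.50 with a wide interval (1.11 to 5.66). All members were 0.595% (0.402 to 0.848) and 1.82% (1.40 to 2.31), a ratio of 3.05 (1.99 to 4.70). The Mcpt8 and Prss34 class had a ratio of 3.13. Over the same barcodes the ratio was 7.44 for neutrophils, 1.81 for NK cells and 1.13 for T cells. These are shares of 1 sorted library each, so more basophils and fewer other CD45+ cells cannot be told apart. Basophil-like cells carried 11 C1q UMIs in 9 of 19 Control cells and 5 in 4 of 42 IR cells, and droplets under 100 UMIs held 4306 and 1518 CPM of C1q. With no C1q UMI allowed, 10 and 38 basophil-like cells were left and the ratio was 5.35.

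**Figure D3:**
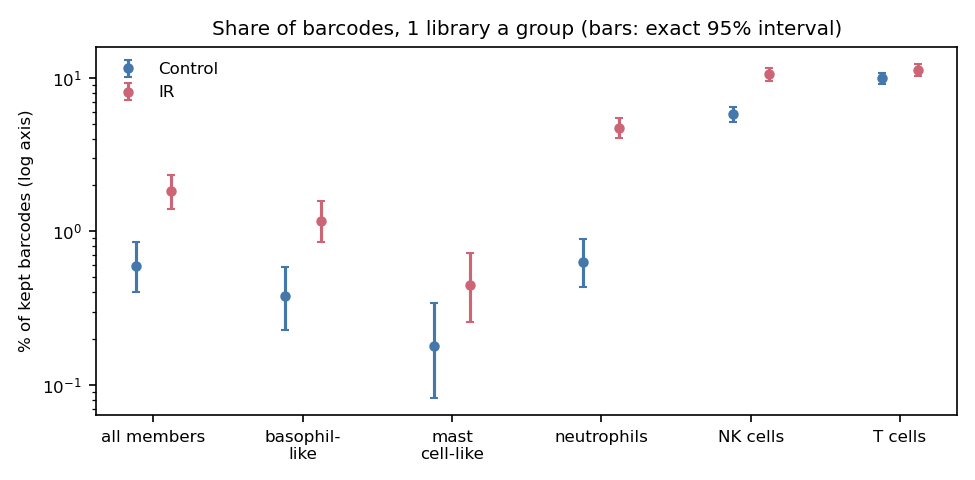
Percent of kept barcodes on a log axis for all members, basophil-like cells, mast cell-like cells, neutrophils, NK cells and T cells in the Control and IR libraries, with exact 95% intervals as bars. The intervals do not overlap for all members and for basophil-like cells, overlap for mast cell-like cells, and are farthest apart for neutrophils.

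Gene levels in basophil-like cells were then compared between IR and Control. Differences are log2 ratios of CPM plus 50, IR over Control, and a gene counted as past 2-fold at 1 or more in size. Of 1168 genes with at least 20 UMIs, 55 (4.71%) were past 2-fold higher and 29 (2.48%) past 2-fold lower in IR. Above 0 were 647 genes and below 0 were 521, and the median of all genes was 0.07. TMM scaling moved that median to 0.24 and the split from 55 and 29 to 90 and 16, so single genes are to be read against that shift. In the Mcpt8 and Prss34 class, 138 of 2179 genes (6.33%) were higher and 43 (1.97%) lower. There 21 of the 30 genes that led the list had most of their UMIs in the Gzmc cells, Stmn1 and Pclaf among those higher and Gzmd and Gzmf among those lower. Of the 30 leading genes of the basophil-like cells, 8 (26.7%) were shared.

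Chemokine genes as a list summed to about the same level in both libraries. The sum was 145535 (142339 to 148784) CPM in Control against 146933 (145041 to 148844) CPM in IR, and 0 of 5 genes with at least 20 UMIs were past 2-fold. Ccl3 was found in every basophil-like cell, at 98.1 to 1078 UMIs per 10000 in Control (median 582) and 47.7 to 1272 in IR (median 401). The cells of the libraries overlapped over nearly the whole range, and the summed Ccl3 level was 54993 CPM in Control and 44455 CPM in IR (log2 ratio -0.31). Ccl4, its neighbour on chromosome 11, had 65242 and 76141 CPM (0.22). Ccl6, a chemokine of myeloid cells, had 8107 and 12929 CPM, 1.59 times as much in IR (1.44 to 1.77), with a log2 ratio of 0.67. Cxcl2 had 14312 and 9968 CPM (-0.52), but 1 Control cell held 41.2% of its Control UMIs, and without that cell the log2 ratio was 0.15.

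The IgE receptor and its signalling genes had a median log2 ratio of -0.06, with 0 of 12 past 2-fold. Ms4a2, Cd200r3 and Mcpt8 chose the members, and Fcer1a, Hdc and Gata2 helped define the basophil-like cells, so their values in both libraries are descriptions. Fcer1a was at 794 and 625 CPM, Ms4a2 at 388 and 281, Fcer1g at 2641 and 3261 and Cd200r3, an activating receptor of basophils, at 868 and 849, all with overlapping intervals. Lilrb4a, an inhibitory receptor, had 1607 and 2342 CPM with no overlap (log2 ratio 0.53). Of the granule and lipid mediator genes, 1 of 10 was past 2-fold, Ptgs2. Hdc was at 5152 and 5820 CPM. Mcpt8 was at 1533 CPM in Control and 2597 in IR (log2 ratio 0.74), found in 16 of 19 and 36 of 42 cells. Its highest Control cell held 28.9% of the Control UMIs, and without it the log2 ratio was 1.14. On the IR side 1 cell held 76 of 407 UMIs, and the 4 cells with most Prss34 held 132. The other 38 IR cells were at 2056 CPM, nearer to the Control level. At 1000 UMIs per cell Mcpt8 was found in 68.4% of Control (43.4 to 87.4) and 61.9% of IR cells (45.6 to 76.4), against 0% and 0.535% of NK cells, so the share of cells with Mcpt8 did not go with the CPM.

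Ptgs2 fell in IR. Per cell it ran from 0 to 116 UMIs per 10000 in Control (median 55.0) and from 0 to 117 in IR (median 7.33), so the ranges overlapped and the medians did not lie close. Summed it was at 5189 CPM (4600 to 5833) in Control and 1736 (1536 to 1955) in IR, 2.99-fold lower (2.52 to 3.54), with a log2 ratio of -1.55. At 1000 UMIs per cell, 84.2% of Control (60.4 to 96.6) and 45.2% of IR basophil-like cells (29.8 to 61.3) had a Ptgs2 UMI, against 94.7% and 66.7% without thinning. The background in NK cells was 4.11% and 5.35% at the same depth. NK cells had a median of 8183 and 9076 UMIs before thinning.

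Tnf, the inflammatory cytokine, also fell. It had 52 UMIs in 10 of 19 Control cells and 18 in 12 of 42 IR cells, or 960 CPM (717 to 1259) and 115 CPM (68.1 to 182), 8.36-fold lower (4.81 to 15.2). The highest Control cell held 26.9% of the UMIs, and without it the log2 ratio moved from -2.62 to -2.27. Csf2, which led the lower genes at -2.80, rested on 1 Control cell with 96.8% of its UMIs, and without that cell its log2 ratio was 0.95. Cytokine and growth factor genes as a list had a median of -0.31, with 0 of 11 past 2-fold higher and 2 lower, Tnf and Csf2. Il6 had 3546 and 2061 CPM (-0.77), Csf1, the macrophage growth factor, 1071 and 625 (-0.73), Il13 720 and 1149 (0.64) and Il1b 997 and 1627 (0.68). Il4, the signature cytokine of basophils, had 3601 and 2234 CPM (-0.68), and without its highest Control cell the log2 ratio was -0.17.

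Immediate-early genes were high in basophil-like cells and lower in IR by sum, from 54107 CPM (52165 to 56102) to 41264 (40265 to 42283). Of 22 genes, 6 were above and 16 below 0, with 1 past 2-fold higher (Klf2) and 3 lower (Jun, Dusp1 and Maff), and a median of -0.08. For all 1168 genes, 647 were above and 521 below 0, with 4.71% past 2-fold higher and 2.48% lower. In the Mcpt8 and Prss34 class 0 of 23 were past 2-fold higher and 5 lower, with a median of -0.28. Egr1, found in all cells, had a median of 108 UMIs per 10000 in Control and 54.3 in IR, and 11505 and 6012 CPM (1.91-fold lower, 1.73 to 2.12, short of the 2-fold limit). Jun was at -1.05, and at -0.21 without the Control cell that held 48.6% of its UMIs. The sum over the same list was 8071 and 7713 CPM in NK cells and 10024 and 10950 CPM in all other barcodes. The NF-kB inhibitors Nfkbia (4543 and 2508 CPM) and Nfkbiz (2419 and 1213 CPM) had intervals that did not overlap, while the NF-kB list had a median of 0.14 and 0 of 9 past 2-fold. Whether time in digestion and sorting moved with these levels was not tested.

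Other genes that led the lower list held few UMIs. Mylip, a ubiquitin ligase of the LDL receptor, had 27 and 7 UMIs (11.2-fold lower, 4.74 to 30.4), the adhesion receptor Cd44 20 and 14 (4.13-fold, 1.99 to 8.85) and the kinase Mknk2 28 and 22 (3.68-fold, 2.03 to 6.75). Hk2, the first enzyme of glycolysis, had 13 and 7 UMIs (5.37-fold, 1.99 to 15.9). The cell death regulators Bcl2l11 (15 and 11 UMIs) and Cflar (11 and 7) were lower, as were Gadd45b (25 and 23), Slc38a2, Slco2b1, Esyt2 and Ell2, with folds from 2.73 for Ell2 (1.32 to 5.62) to 4.55 for Cflar (1.61 to 13.8). Cflar was under 20 UMIs in all and not among the 1168 genes. The p53 target Mdm2 had 16 and 13 UMIs (3.56-fold lower, 1.61 to 8.05), and its log2 ratio moved from -1.38 to -0.49 without the highest Control cell. Cdkn1a, the p53 target that arrests the cell cycle, had 591 and 893 CPM with overlapping intervals, and of 4 p53 targets measured 0 were past 2-fold higher and 1 lower.

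Among genes higher in IR, the purine receptor Adora2b, which senses adenosine, had 3 UMIs in 2 of 19 Control cells and 61 in 29 of 42 IR cells (7.03-fold, 2.29 to 35.0). At 1000 UMIs it was found in 5.26% of Control (0.133 to 26.0) and 23.8% of IR cells (12.1 to 39.5), against 0% and 0.802% of NK cells. The complement receptor C5ar1 had 388 and 1002 CPM (2.58-fold, 1.63 to 4.29) and was present in 15 of 19 and 33 of 42 cells. Its median rose from 3.88 to 8.69 UMIs per 10000, with overlap. At 1000 UMIs C5ar1 was found in 26.3% of Control (9.15 to 51.2) and 38.1% of IR cells (23.6 to 54.4). At that depth it was found in 2.05% and 4.01% of NK cells and 1.23% and 4.75% of T cells. Receptor genes as a list had 3 of 18 past 2-fold higher, C5ar1, Il3ra (2 and 27 UMIs), the receptor chain for interleukin-3 on which basophils depend, and the homing receptor Cxcr4 (6 and 45 UMIs), and 1 lower, Cd44. The intervals of Il3ra and Cxcr4 overlapped. Over all genes, 4.71% were past 2-fold higher and 2.48% lower.

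Socs3, a feedback inhibitor of cytokine signalling, had 3 and 55 UMIs (6.34-fold, 2.06 to 31.7). It was the 1 of 7 interleukin-3 and STAT5 response genes past 2-fold, and Pim1 of the same list had 3361 and 2451 CPM (-0.45). Nfil3, a transcription factor induced by interleukin-3, had 12 and 89 UMIs (2.56-fold, 1.40 to 5.15) and was found in 7 of 19 and 37 of 42 cells. Among all 1168 genes, 647 were above 0 and 4.71% past 2-fold higher. Of 10 transcription factors measured, 9 were above 0 and 2 past 2-fold higher, Nfil3 and Bhlhe40 (2 and 21 UMIs), with a median of 0.43. Gata2 was the exception at 1293 and 747 CPM (1.73-fold lower, 1.27 to 2.35). Cebpb had 3084 and 4588 CPM (0.57).

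The secreted protease inhibitor Slpi had 9 and 116 UMIs (4.45-fold, 2.27 to 9.99), the annexin Anxa1 19 and 151 (2.75-fold, 1.70 to 4.69) and the redox enzyme Srxn1 15 and 117 (2.70-fold, 1.57 to 4.97). Klf2 had 2 and 39 UMIs (6.74-fold, 1.74 to 57.6), of which 30.8% of the IR UMIs lay in 1 cell. Csrp1, Gch1, Phlda1, Ecm1, Ndufb1-ps and Hs3st1 completed the list, with log2 ratios of 1.43 (Hs3st1) to 1.62 (Csrp1). Of the 30 leading genes, 25 stayed past 2-fold in the same direction without the Control cell with most UMIs of the gene, and 30 without such an IR cell. The plot of leading genes shows all 30 with their intervals.

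**Figure D4:**
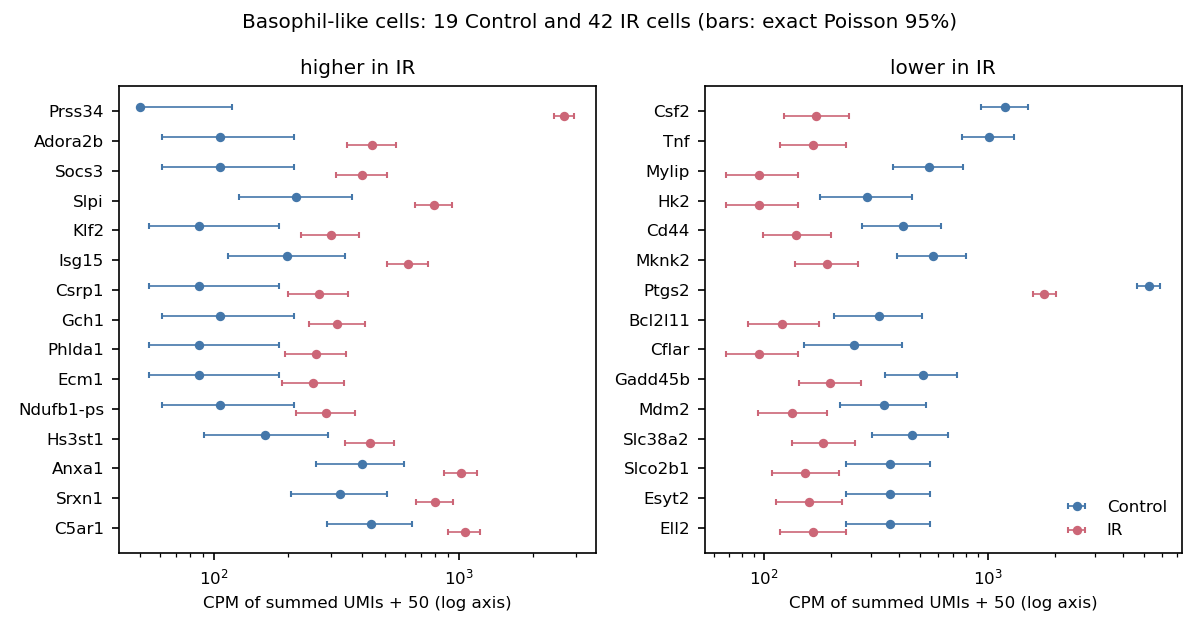
CPM of summed UMIs plus 50 on a log axis for the 15 genes highest and the 15 lowest in IR relative to Control in basophil-like cells (19 Control and 42 IR cells, bars: exact Poisson 95% intervals). Prss34 and Adora2b lead the higher genes and Csf2 and Tnf the lower ones, and the intervals of all 30 do not overlap by the rule that chose them.

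Type I interferon genes were higher in IR by sum in basophil-like cells and in the other populations compared. Isg15, a ubiquitin-like protein induced by type I interferon, had 8 UMIs in 5 of 19 Control and 89 in 24 of 42 IR basophil-like cells, or 148 and 568 CPM (3.84-fold, 1.87 to 9.18). At 1000 UMIs it was found in 15.8% (3.38 to 39.6) and 33.3% (19.6 to 49.5) of cells, against 3.08% and 15.2% of NK cells. Of 4 genes of the type I interferon list with at least 20 UMIs all were above 0, against 647 of all 1168 genes, and 1 was past 2-fold. The list of 46 genes summed to 1699 CPM (1370 to 2084) and 2699 CPM (2448 to 2969). In mast cell-like cells the list had 20 UMIs (620 CPM, 379 to 958) and 303 UMIs (4254 CPM, 3789 to 4761). Without 2 IR cells that carried RNA of other lineages, described further on, it had 89 UMIs in IR (2078 CPM, 1669 to 2557). Other cells went the same way, with 1876 and 4987 CPM in NK cells, 2306 and 8050 in T cells, and 12038 and 16579 in neutrophils, as did droplets under 100 UMIs with 4129 and 10086 CPM. With free RNA subtracted, the median log2 ratio of the 4 genes in basophil-like cells went from 0.77 to 0.69 and that of Isg15 from 1.64 to 1.61. In the Mcpt8 and Prss34 class, 9 genes had enough UMIs, with a median of 0.92 and 3 past 2-fold. The interferon-gamma list summed to 406 CPM (255 to 615) and 517 CPM (411 to 642) in basophil-like cells, with overlapping intervals. Its 2 genes with enough UMIs had a median log2 ratio of -0.11. In mast cell-like cells it had 3 UMIs (93.1 CPM) and 78 UMIs (1095 CPM), with the 2 mixed IR cells included. Genes of MHC class I, also raised by interferons, had a median log2 ratio of 0.19 with 0 of 10 past 2-fold in basophil-like cells, and of 0.61 with 3 of 15 past 2-fold in the Mcpt8 and Prss34 class, where the Gzmc cells held 49.4% and 54.8% of all UMIs.

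**Figure D5:**
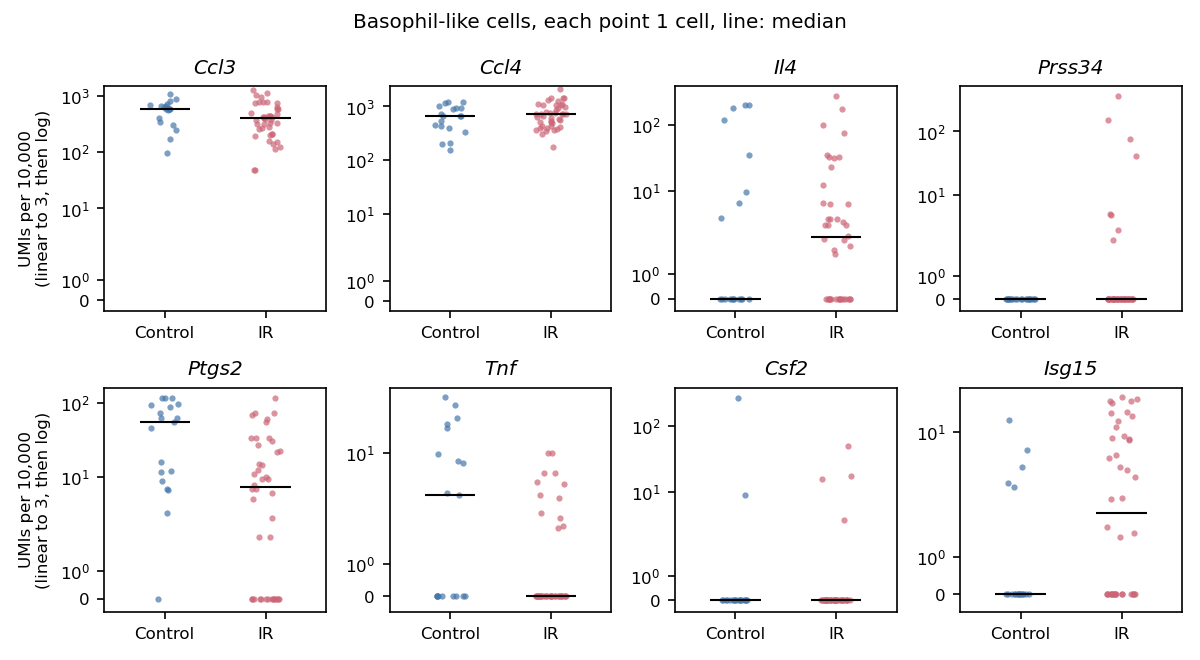
UMIs per 10000 UMIs in each basophil-like cell, linear to 3 and then log, for selected genes in 19 Control and 42 IR cells, with the median as a line. Ptgs2 has a median of 55.0 in Control and 7.33 in IR, Ccl3 overlaps over nearly its whole range, and among these cells Prss34 is found in IR alone.

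Prss34 led the genes higher in IR and was spread unevenly over cells. It had 0 UMIs in 19 Control basophil-like cells and 413 in IR ones, at least 47.6-fold higher with 3 counts as the Control limit. That bound takes the UMIs as independent counts, although few cells held most of them. With cells thinned to equal depth, 0% of Control (0 to 17.6) and 9.52% of IR cells (2.66 to 22.6) had a UMI. These intervals overlap, so 19 Control cells could have missed a subset of that size. Before thinning, 8 of 42 IR cells had a UMI, 4 cells held 98.3% of the UMIs and 1 cell 62.0%. These 4 cells held a median of 5978 UMIs against 3340 in the others, and they also had more Cpa3 (2658 against 464 CPM), Fcer1a (log2 ratio 1.66), Mcpt8 (1.46), Ms4a2 (1.40) and Cebpa (1.33). They had less Il13 (-2.61), with 4 UMIs against 176 in the other IR cells, but Il13 was found in 20 of all 42 IR cells. Cebpa had 13 UMIs in the 4 cells, of which 2 lay above the level of the other cells. Of the UMIs in the 4 cells, 1 cell held 39 of 61 for Cpa3, 76 of 132 for Mcpt8 and 0 of 13 for Cebpa. In the other 3 cells Cpa3 was at 1391 CPM and the log2 ratio of Mcpt8 was 0.77. Cpa3, Mcpt8 and Ms4a2 chose the members and Fcer1a helped define the cells, so these are descriptions. The cut at 10 UMIs was chosen after the values were seen.

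Il4 was also carried by few cells, and in both libraries. With a cut of 8 UMIs, chosen after the values were seen, 5 of 19 Control and 9 of 42 IR cells held 96.9% and 93.4% of the Il4 UMIs. Those cells had more of the neighbouring cytokine gene Il13 (log2 ratio against the other cells 2.02 in Control and 1.71 in IR), Mcpt8 (1.28 and 1.42), the interferon-inducible Gbp2 (4.48 and 3.01), Rgcc (2.02 and 4.64), Acod1 (3.33 and 1.29), Nr4a1 (2.61 and 1.44) and Il1rl1 (2.10 and 1.34). These genes were also chosen after the values were seen, and Il1rl1 had 46 UMIs in all 61 basophil-like cells, so its ratios rest on few counts. The Il4-high cells held a median of 2269 UMIs in Control and 4282 in IR, against 2999 and 3318 in the other cells. At 1000 UMIs per cell, the share with Il4 was 31.6% (12.6 to 56.6) in Control against 31.0% (17.6 to 47.1) in IR, and without thinning 42.1% and 61.9%. Il13 was found in 36.8% (16.3 to 61.6) and 23.8% (12.1 to 39.5) at that depth, and in 63.2% and 47.6% without thinning. The cells with Il13 were in part others: 1 Control cell with 41 UMIs of Il4 had 0 of Il13, and 1 IR cell with 1 UMI of Il4 had 25 of Il13.

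Mast cell-like cells, 9 and 16, were too few for list medians, and their values are given side by side. Cma1 was found in all 25, at 185 to 619 UMIs per 10000 in Control (median 223) and 84.7 to 842 in IR (median 285). Mcpt4 had medians of 104 and 117, Tpsb2 136 and 253, and Cpa3 49.6 and 72.1, and the cells of both libraries overlapped for each. Ccl7 was found in all 25 cells as well, with medians of 158 and 131, and Ccl2 in 8 of 9 and 16 of 16. Mcpt1, a protease of mucosal mast cells, was found in 4 of 9 and 6 of 16 cells, with 255 UMIs in Control and 148 in IR.

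A pair of IR mast cell-like cells carried RNA of other lineages. One of 10622 UMIs had all 73 UMIs of the neutrophil gene S100a9 in mast cell-like cells, and 29 of Nkg7. The other, of 17763 UMIs, had 30 UMIs of Cd74, 24 of Lyz2, 107 of Ccl3, 28 of Il4 and 98 of Tnf. With both, Tnf had 11 UMIs in Control (341 CPM) and 125 in IR (1755 CPM), and without them 13 UMIs (303 CPM, 162 to 519) in 14 IR cells. Il13 had 6 and 54 UMIs with them, and 0 in IR without them. The interferon list stayed higher, at 2078 CPM (1669 to 2557) without them against 620 in Control, and Isg15 had 14 UMIs in IR against 2. Tph1 had 40 UMIs in Control (1241 CPM, 886 to 1690) and 192 in IR (2696 CPM, 2328 to 3105), and 183 (4272 CPM) without the pair. Collagen and other fibroblast markers had 119 UMIs (3691 CPM) in Control mast cell-like cells and 0 in IR. The pair was picked by S100a9 and Cd74 alone, and no Control cell was removed. Values without the pair therefore set a filtered IR group against an unfiltered Control group.

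Markers of other cells in basophil-like cells were as follows, where limits on C1q, Cd3, Gzmc, Nkg7 and Ncr1 held down some of the macrophage, T cell and NK cell markers by construction. Macrophage and monocyte markers had 73 UMIs in Control (1348 CPM) and 187 in IR (1193 CPM), NK cell markers 4 and 21, neutrophil markers 4 and 17, T cell markers 0 and 4, and B cell markers 2 and 0. Dendritic cell and red cell markers had 0 UMIs in both libraries, and of 8 eosinophil markers 8 were at 0 in Control and 6 in IR. Mast cell markers had 14 and 12 UMIs, with 11 and 12 of 13 genes at 0.

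Ythdf2, the m6A reader that the study targets, had 0 UMIs in all 61 basophil-like cells. At 210849 UMIs a count of 0 allows up to 14.2 CPM, or 55.4 CPM in Control alone and 19.1 CPM in IR alone. All other barcodes had 44.1 CPM in Control and 44.0 in IR, NK cells 41.6 and 40.0, and droplets under 100 UMIs 37.8 and 36.1. The level in IR basophil-like cells therefore lay below that of the other cells by more than counting error, and in Control the depth cannot show it. The 13 m6A readers, writers and erasers together had 19 UMIs in Control and 39 in IR, and 0 of them had the 20 UMIs needed for a ratio.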

How the data were processed

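Single-cell 3' libraries (10x Chromium v3.1) of CD45+ cells were sequenced, 1 per group. The deposited files are unfiltered matrices of raw UMI counts, with 32285 genes in each library. The submitters' processing notes name Cell Ranger 6.0.1 and mm10, and the matrix header names Cell Ranger 4. The libraries held 48593879 (Control) and 42406461 (IR) UMIs. At 500 or more UMIs there were 5528 and 3774 barcodes, 7 shared by sequence, and the mitochondrial limit left 5043 and 3579.

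UMIs were summed per library and cell class, scaled to CPM, and compared as log2 ratios of CPM + 50 for genes with at least 20 UMIs. With 1 library per group there is no test, p-value or replicate error. Intervals (exact Poisson, exact conditional for folds, Clopper-Pearson for shares, all 95%) cover counting error only. A count of 0 was taken as at most 3 counts. Leading genes had at least 200 CPM in 1 library, a 2-fold difference and intervals that did not overlap, with the 15 largest taken per direction. Between cell types the 15 largest per direction at 200 CPM or more in 1 class were taken. Xist and the mitochondrial and Y-linked genes were not named. Genes of the lists are named beside these. Gzmc, Gzmd, Gzmf, Cited2, Rgcc and Acod1, and the genes set against Il4 and Prss34 within the basophil-like cells, were chosen after their values were seen. For shares of cells with a UMI, each cell was thinned to 1000 UMIs. No basophil-like cell was left out by this, and 1 Control and 2 IR NK cells were. Neutrophil, NK cell and T cell barcodes were set by marker UMIs as comparison populations.

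The members, gene lists and tests were chosen with earlier results of these data known, and the definition of the 61 basophil-like cells, the leave-1-cell-out values and the removal of cells with other lineages' RNA were chosen after seeing the data. Doublets were not removed, and Scrublet (scanpy 1.11.5) served as an alternative. The computation used Python 3.11.15, numpy 2.4.6, pandas 2.3.3, scipy 1.17.1 and, for TMM factors, edgeR 4.0.16 in R 4.3.3. Scripts were tested on simulated data. Alternatives covered the cell limits, rule genes, split, doublets, depth, scaling, pseudocount, low-count filter and free RNA. Gene positions are GENCODE vM21 on GRCm38, and promoters are RefSeq GRCm38.p6, in which all 7 genes looked up had an entry.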

Additional observations from a re-analysis of the deposited data

Results flagged for a closer look

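Of genes with at least 20 UMIs in each cell type, 3 were past 2-fold in opposite directions in the 2 cell types, and for 2 of them, Tnf and Cited2, the intervals of the libraries did not overlap in either. The third, Anxa1, had log2 ratios of 1.34 in basophil-like and -1.23 in mast cell-like cells, with overlapping intervals in the latter. Tnf had a log2 ratio of -2.62 in basophil-like cells and 2.21 in mast cell-like cells. The mast cell value rests on 1 IR cell with 98 of 125 UMIs (78.4%). Without the 2 IR cells that carried RNA of other lineages, and with no Control cell removed, the levels were 341 and 303 CPM. Cited2, a transcriptional regulator, had -1.05 in basophil-like cells (28 and 35 UMIs) and 1.98 in mast cell-like cells (2 and 28 UMIs), where 1 IR cell held 89.3% of the UMIs. The difference between the cell types was not tested for any of these genes, and with 1 library per group it cannot be.

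Outside the cells, droplets under 100 UMIs carried Mcpt8 at 1.13 CPM (6 UMIs) in Control and 4.51 CPM (18 UMIs) in IR, while basophil-like cells had 1533 and 2597 CPM.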

How the results depend on the processing

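No paired analysis was possible because each group was a single library, and for the same reason no replicate could be left out. The depth limits genes with few UMIs: 19 Control cells gave 54152 UMIs, so 1 UMI is 18.5 CPM. The share of mast cell-like cells (19 alternatives) and of all members (16) stayed within the interval of the main ratio. Without any C1q UMI the ratio of the shares rose from 3.11 to 5.35 in basophil-like cells and from 3.13 to 6.52 in the Mcpt8 and Prss34 class. The cause was not tested for any value here.

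In basophil-like cells, 55 genes were higher and 29 lower. The higher count moved by over 1.5 times to 94 with no C1q UMI allowed, 92 with no C1q and Cd3 limits, 100 and 7 with a pseudocount of 10 and 200 CPM, 90 with TMM factors, 153 with no filter on UMIs and 16 with at least 50 UMIs, and the lower count under these to 49, 49, 62, 5, 16, 134 and 10, and to 45 with the rule without Mcpt8. The last 2 filters and the pseudocounts change what can be called by construction. TMM put 84.9% of calls on the higher side, against 65.5%, no filter on UMIs 53.3% and 200 CPM 58.3%. A list median counted as unmoved when it changed by no more than the median distance, over the list's genes, from a log2 ratio to the end of its 95% counting interval. By this 282 values did not move and 6 did. The chemokine median of 0.20 was -0.050 with at least 2 marker UMIs, 0.45 with no C1q UMI, 0.38 with the rule without Mcpt8 and 0.41 with TMM. The cytokine median of -0.31 was 0.23 with the rule without Mcpt8, and the NF-kB median of 0.14 was -0.55 after thinning before the rule. Of the leading genes, 1 was reversed: Csf2 at 0.92 (at least 5 marker UMIs), 0.89 (rule without Cd200r3), 1.05 (thinned) and 0.95 (without its highest Control cell).

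In the Mcpt8 and Prss34 class, 138 genes were higher and 43 lower. The higher count was 560 with no C1q UMI, 76 with no C1q and Cd3 limits, 49 without members with UMIs of another lineage, 67 after thinning, 247 with a split by all markers, 55 with Ward clusters, 354 and 13 with 10 and 200 CPM, 68 with at least 50 UMIs and 66 without the Gzmc cells. The lower count was 68 with at least 5 marker UMIs, 185 with no C1q UMI, 27 after thinning, 92 with all markers, 96 and 13 with 10 and 200 CPM, 66 with the CPM total without mitochondrial and ribosomal genes, 75 with no filter, 21 with at least 50 UMIs and 28 without the Gzmc cells. The chemokine median of -0.01 became -0.15 and -0.18 with at least 2 and 5 marker UMIs, -0.66 with no C1q UMI, 0.40 with no limits, 0.33 without Mcpt8, 0.24 without other lineages, -0.44 with all markers, 0.20 with Ward clusters, 0.13 with the mean of cells and 0.15 without the Gzmc cells. The cytokine median of -0.50 became -1.48 with no C1q UMI and 0.088 without Mcpt8. With no C1q UMI the granule median went from 0.01 to -0.74 and the immediate-early median from -0.28 to -1.13. Reversed in this class were Csf2 (0.57, 0.67, 0.99 and 0.67 under the 4 settings above), Tubb5 (-0.046 with no limits), and, without the highest Control cell, Avil (0.48), Tmsb15a (0.34), Tnfrsf9 (0.17), Serpinb6b (0.71) and Gzmf (7.53). With no C1q UMI Tnfrsf9 was at 2.09, Gzmd 6.83, Serpinb6b 1.66 and Gzmf 7.57, and Gzmf was also at 7.64 with at least 5 marker UMIs and 7.16 with all markers.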
